A study of Mus musculus with 2 samples.

Results

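The cells compared were arterial endothelial cells and capillary endothelial cells rich in Plvap, both from the ileum, the last stretch of the mouse small intestine. They made up 3449 of the 7328 cell barcodes in 2 droplet-based 3' single-cell RNA libraries: 1097 arterial cells and 2352 Plvap-high capillary cells. Both libraries came from wild-type male C57Bl/6 mice aged 8 weeks and carry the same labels, so every comparison was between classes of cells inside a library (n = 2 libraries). Cells stained for CD45 (leukocytes) or EpCAM (epithelium) had been discarded in the sort, and cells with CD31 were kept and split by PDPN into blood (negative) and lymphatic (positive) endothelium. Whether separate mice gave the libraries is not stated in the labels. The p-values rest on how far the class difference varied between these 2 libraries, a spread mostly pooled over genes. That spread may be technical.

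Cells were assigned by counts of unique molecular identifiers (UMIs, 1 per captured RNA molecule) of 18 genes, after barcodes with fewer than 500 genes or over 15% mitochondrial UMIs were left out. A gate for blood endothelium asked for at least 5 UMIs of Flt1, Cd34, Plvap and Esam together, at most 2 of the lymphatic genes Mmrn1, Lyve1, Reln and Prox1, and at most 1 of the venous genes Ackr1, Selp and Madcam1. Arterial cells then had at least 3 UMIs over Sema3g, Fbln5, Stmn2, Gja5 and Bmx, a sum called the arterial score here. Capillary cells had at most 1 such UMI and more Plvap than Gpihbp1 and Aqp1 together. Library 1 held 163 arterial cells (16.7% of 978 kept cells, 95% Clopper-Pearson interval 14.4 to 19.2%) and 301 Plvap-high capillary cells (30.8%, 27.9 to 33.8%). Library 2 held 934 (15.4% of 6067, 14.5 to 16.3%) and 2051 (33.8%, 32.6 to 35.0%). These shares follow from the rule and the sort, and the intervals cover counting error only.

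Arteries carry blood at high pressure and pulse, and their endothelium is known for connexins that couple cells, for Notch signalling, and for an elastic matrix shared with the smooth muscle around it. Capillaries of the intestinal mucosa are fenestrated: Plvap builds the diaphragms that close these pores, through which absorbed solutes enter the blood. Gut capillaries also lie on a basement membrane and respond to VEGF from the epithelium, which maintains the fenestrae.

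The 18 genes of the rule are given as a description only. Levels are UMIs per 1000000 UMIs of the class in that library (CPM). Sema3g stood at 713 and 606 CPM in the arterial cells of libraries 1 and 2 and at 38.5 and 31.0 CPM in the capillary cells. Fbln5 stood at 541 and 474 against 4.38 and 3.99 CPM. Both genes, with Stmn2, made up most of the arterial score: Sema3g gave 34.6 and 34.8% of its UMIs, Fbln5 26.3 and 27.2% and Stmn2 24.9 and 26.9%. Gja5 and Bmx gave the rest, at 191 and 125 and 104 and 66.4 CPM in arterial cells. Plvap itself was far from absent in arterial cells, at 2691 and 2551 CPM against 4662 and 4660.3 CPM. The capillary limit on Gpihbp1 and Aqp1 applied to 1 class only, and arterial cells held Aqp1 at 954 and 563 CPM against 136 and 129 CPM. Just outside the limits, 76 and 349 cells had a score of 2 and entered neither class, where Fbln5 stood at 40.0 and 39.7 CPM. Just inside, 41 and 209 arterial cells had a score of 3, and Fbln5 stood at 119 and 90.5 CPM in the cells of score 3 or 4. Plvap exceeded Gpihbp1 and Aqp1 by 1 UMI in 7 and 32 capillary cells, and equalled them in 6 and 38 cells that were left out.

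The library totals were 3806199 and 26645476 UMIs, and the classes summed to 664891 and 4671959 UMIs in arterial and 1142443 and 9018473 in capillary cells. Median UMIs per cell were 3626 and 4499.5 in arterial and 3653 and 4149 in capillary cells, so library 2 carries most of the precision. Of all barcodes 2 occurred in both libraries, none of them in these classes. Markers of other cell types were low but uneven. Mural (pericyte and smooth muscle) markers summed to 190 and 383 CPM in arterial against 122 and 147 CPM in capillary cells, and fibroblast markers to 19.6 and 473 against 17.5 and 200 CPM. Abcc9 gave 77.9 and 61.0 CPM of the capillary mural sums and 16.5 and 11.1 CPM of the arterial ones. The other mural markers together were thus more uneven than these sums. At least 10 mural UMIs were held by 1 and 22 arterial and 2 and 11 capillary cells. In library 2, 1 capillary cell of 97664 UMIs held 7870 of the class's 8114 epithelial marker UMIs. Ptprc, which encodes CD45, was at 0 in arterial cells of both libraries and reached 0.444 CPM in capillary cells, and Pdpn reached at most 2.35 CPM.

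Arterial and capillary sums were tested for every gene outside the rule with edgeR's quasi-likelihood test, the library being a block, with Benjamini-Hochberg adjustment of the p-values and a false discovery rate of 0.05 as the limit. Of 10569 genes tested, 1722 passed (16.3%), 960 higher in arterial cells (9.08%) and 762 lower (7.21%). At least a 2-fold difference was fitted for 435 of the higher and 203 of the lower genes. In 97.7% of the genes that passed, both libraries differed in the same direction, against 63.5% of all genes tested. The test used these same 2 libraries and favours genes on which they agree, so this share is no separate check. A median log2 fold change of 0.00 over all tested genes is the background for the gene lists below. The cells were selected by genes that other genes accompany, so a passing gene is one that follows this selection. With DESeq2 465 genes passed, all of them among the 1722. Without the library block 613 passed.

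**Figure D1:**
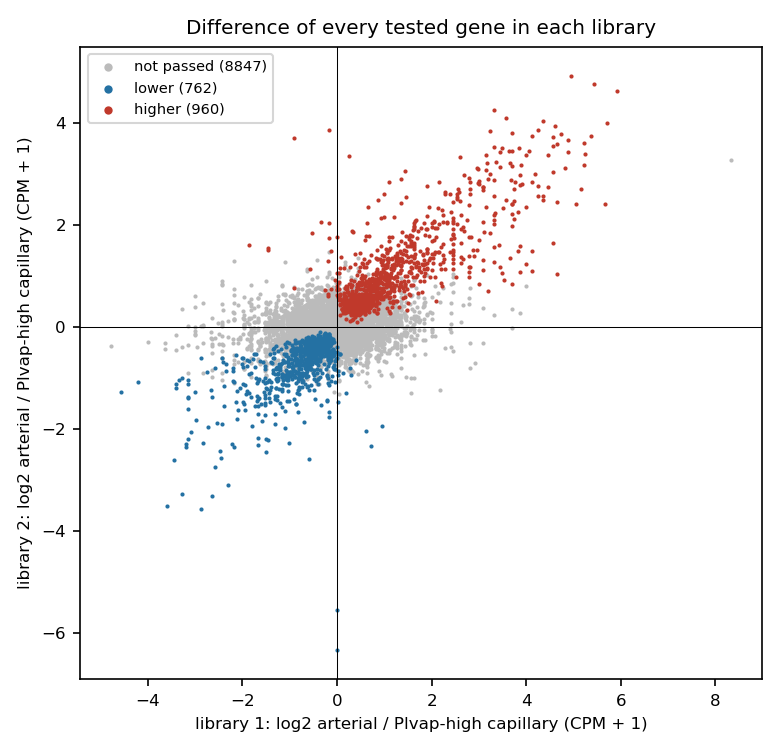
Each point is a tested gene outside the rule, with the log2 ratio of arterial to Plvap-high capillary CPM (plus 1) in library 1 on the x axis and in library 2 on the y axis. Red points are the 960 genes that passed as higher, blue the 762 that passed as lower and grey the 8847 that did not pass. Most coloured points lie in the quadrants where both libraries have the same sign, which the test on these libraries favours.

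Nebl and Fn1 were among the 12 largest increases. Nebl, which encodes the actin-binding protein nebulette (chromosome 2, 17343909 to 17731464), stood at 57.2 and 56.7 CPM in arterial and 0.875 and 0.887 CPM in capillary cells. Its log2 fold change was 5.92 ± 0.29 (SE, edgeR adjusted p = 1.2e-13). That was the largest among genes of the same direction in both libraries that reached 50 CPM in both where higher. Fn1, the gene of the matrix protein fibronectin (chromosome 1, 71585520 to 71653200), stood at 271 and 334 against 3.5 and 12.4 CPM, a log2 fold change of 4.84 ± 0.15 (edgeR adjusted p = 8.7e-18). The arterial and capillary values of both genes were far apart in each library. Palld, which crosslinks actin, stood at 51.1 and 55.9 against 0 and 2.55 CPM (log2 4.59 ± 0.28). Enpp6, a choline-releasing phosphodiesterase, stood at 126 and 76.2 against 5.25 and 3.66 CPM (log2 4.38 ± 0.19). Alpl, the tissue-nonspecific alkaline phosphatase, stood at 164 and 168 against 16.6 and 10.8 CPM (log2 3.81 ± 0.15). The calcium pump gene Atp2a3 and Pcsk5, a protease that activates secreted precursors, were also among the 12 largest increases, with log2 fold changes of 3.46 ± 0.19 and 3.65 ± 0.16.

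Among the 12 largest decreases, Fam167b had 6.02 and 7.06 CPM in arterial and 84.0 and 90.1 CPM in capillary cells, a log2 fold change of −3.72 ± 0.19 (edgeR adjusted p = 1.6e-13). Slc16a1, a transporter of lactate and ketone bodies, had 13.5 and 25.9 against 102 and 128 CPM (log2 −2.41 ± 0.14). Esm1, a proteoglycan gene of growing capillary tips (endocan), had 107 and 92.0 against 325 and 333 CPM (log2 −1.82 ± 0.10). The receptor phosphatase Ptpru, the sulfotransferase Chst2, the potassium channel subunit Abcc9 and the nuclear receptor Nr5a2 were lower too. Their log2 fold changes were −2.58 ± 0.19, −2.57 ± 0.19, −2.44 ± 0.18 and −1.75 ± 0.13. The selection required the same direction in both libraries, so each of these genes was lower in arterial cells of both by construction.

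**Figure D2:**
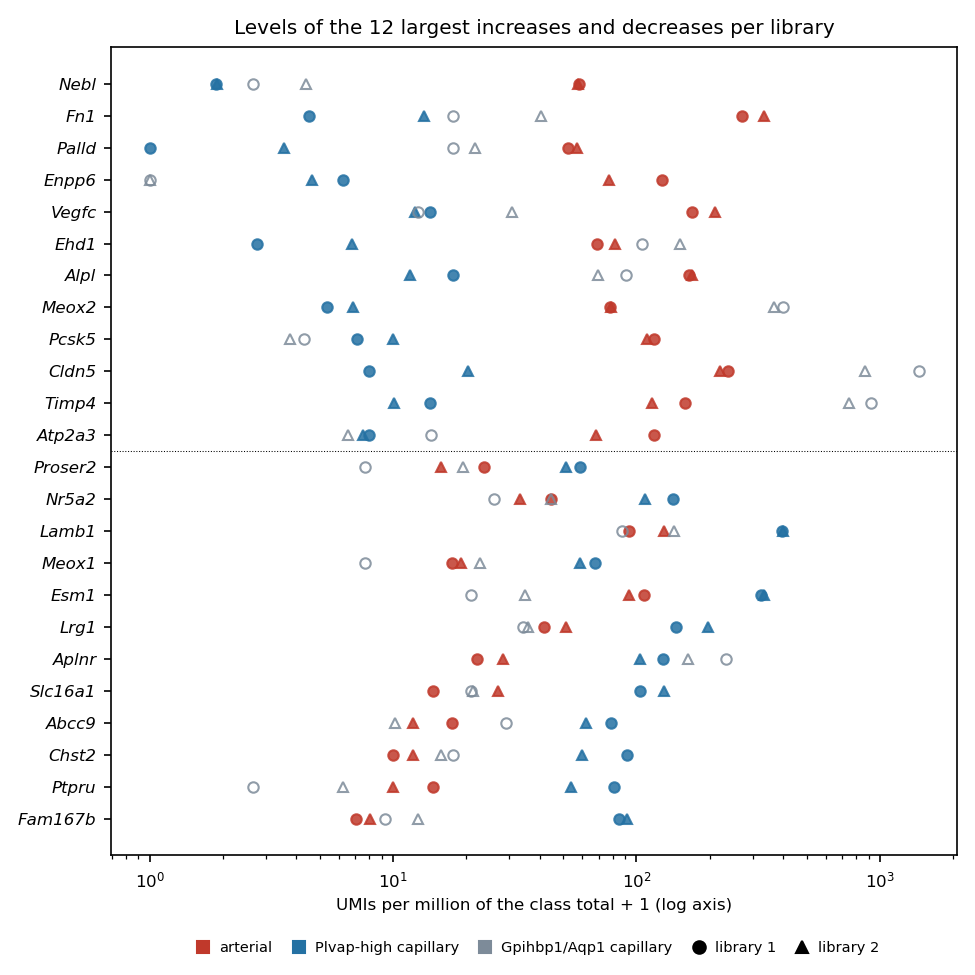
Levels (CPM plus 1, log axis) of the 12 largest increases (upper part) and 12 largest decreases (lower part) among the genes that reached 50 CPM, in library 1 (circles) and library 2 (triangles). Arterial values (red) lie right of the Plvap-high capillary values (blue) in the upper part and left of them in the lower part; grey outlines show the Gpihbp1/Aqp1 capillary cells, where Ehd1, Meox2, Cldn5 and Timp4 were highest.

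Promoters of 4 of the genes that passed are shown because the core motif of RBPJ, the DNA-binding partner of Notch, could be searched in them; they were chosen after their values were seen. Each line gives the 250 bases before the transcription start from RefSeq on GRCm38.p6, 5′ to 3′ on the gene's strand, with TGGGAA or its reverse complement TTCCCA in capitals. Pcsk5 and S100a6 were higher and Lamb1 and Fam167b lower in arterial cells. Their windows lie at chr19:17837633-17837882 (minus strand), chr3:90612644-90612893 (plus), chr12:31265043-31265292 (plus) and chr4:129578581-129578830 (minus).
Pcsk5: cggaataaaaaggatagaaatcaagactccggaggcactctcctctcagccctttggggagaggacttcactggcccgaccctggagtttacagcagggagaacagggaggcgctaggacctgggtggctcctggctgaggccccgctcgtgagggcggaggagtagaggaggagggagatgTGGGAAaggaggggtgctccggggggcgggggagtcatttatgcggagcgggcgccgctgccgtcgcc
S100a6: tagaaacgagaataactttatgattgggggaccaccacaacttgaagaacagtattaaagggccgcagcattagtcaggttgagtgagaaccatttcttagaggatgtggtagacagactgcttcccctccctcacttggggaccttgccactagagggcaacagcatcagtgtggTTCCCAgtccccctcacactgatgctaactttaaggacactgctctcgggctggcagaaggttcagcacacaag
Lamb1: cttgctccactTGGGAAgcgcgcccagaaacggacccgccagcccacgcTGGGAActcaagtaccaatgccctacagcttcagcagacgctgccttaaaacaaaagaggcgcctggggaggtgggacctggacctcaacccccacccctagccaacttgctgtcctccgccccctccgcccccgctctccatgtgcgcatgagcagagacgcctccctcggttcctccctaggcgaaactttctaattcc
Fam167b: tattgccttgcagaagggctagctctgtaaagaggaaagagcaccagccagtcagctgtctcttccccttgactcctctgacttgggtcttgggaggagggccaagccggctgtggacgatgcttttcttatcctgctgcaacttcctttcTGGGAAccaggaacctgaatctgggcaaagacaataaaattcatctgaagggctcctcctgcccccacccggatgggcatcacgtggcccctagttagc
The core begins 68 bases before the start in Pcsk5, 74 in S100a6 and 99 in Fam167b, and at 239 and 201 bases in Lamb1, which holds it 2 times. Of the 960 higher genes 735 matched a promoter, and 27.9% of these (205) held TGGGAA on either strand. The share was 27.3% of the lower genes (159 of 582), 23.8% of 8253 tested genes with a promoter and 24.1% of all 27025 promoters. AACAAT, the core motif of SOX factors, was in 7.76% of the higher, 7.04% of the lower and 6.35% of the tested genes' promoters. Higher and lower genes thus held either motif in nearly the same share, and a match is a description of these letters, not a binding site.

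Elastic and fibrillar matrix genes were higher or did not pass. Of 15 members tested, 9 were higher in arterial cells, 0 lower and 6 did not pass (median log2 fold change 1.54). Eln, the gene of elastin, stood at 218 and 204 against 51.6 and 47.0 CPM, a log2 fold change of 2.08 ± 0.11 (edgeR adjusted p = 1.6e-13). Fbln2, which binds elastic fibres and basement membranes, stood at 350.4 and 361 against 33.3 and 37.5 CPM (log2 3.26 ± 0.10). Lox, the enzyme that crosslinks elastin and collagen, stood at 43.6 and 21.2 against 0.875 and 0.887 CPM (log2 4.68 ± 0.38). The microfibril genes Fbn1 and Ltbp4 rose by 1.43 and 0.86 on the log2 scale. Mgp, an inhibitor of vessel calcification, stood at 603 and 346 CPM in arterial and 0.875 and 34.5 CPM in capillary cells and did not pass (log2 3.75 ± 0.95, edgeR adjusted p = 0.36). Without cells holding markers of other cell types its log2 fold change was 6.29, and it passed. Bgn, which fibroblasts and mural cells also express, was higher as well (90.2 and 68.9 against 1.75 and 12.1 CPM).

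Basement membrane genes went mostly the other way. Of 16 tested, 11 were lower in arterial cells, 4 higher and 1 (Lama5) did not pass (median log2 −0.74). Lamb1, a laminin chain, fell from 394 and 398 CPM in capillary to 91.7 and 129 CPM in arterial cells (log2 −1.76 ± 0.10, edgeR adjusted p = 7.6e-13). Col15a1, a collagen next to the basement membrane, had 794 and 657 CPM in capillary and 253 and 250.002 CPM in arterial cells (log2 −1.5 ± 0.08). The main collagen IV chains were lower as well, Col4a1 at 902 and 913 against 1731 and 1600.2 CPM (log2 −0.88 ± 0.06) and Col4a2 with a log2 fold change of −0.75 ± 0.07. Perlecan (Hspg2), the nidogens Nid1 and Nid2, and the laminin chains Lama4 and Lamc1 were among the others that fell. The 4 members that rose were the laminin chains Lamb2 and Lama3, agrin (Agrn) and Col18a1, whose C-terminal fragment is endostatin. Lamb2 stood at 314 and 349 against 147 and 138 CPM (log2 1.25 ± 0.09) and Col18a1 at 45.1 and 40.2 against 2.63 and 4.55 CPM (log2 3.23 ± 0.25). The laminin beta chains thus differed in opposite directions, Lamb1 lower and Lamb2 higher in arterial cells of both libraries.

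Of 11 integrin subunits tested, 4 were higher (Itga5, Itga9, Itgb1, Itgb4), 2 lower (Itga6, Itgb5) and 5 did not pass. Itga5, which pairs with Itgb1 in the fibronectin receptor, stood at 132 and 115 against 77.0 and 90.7 CPM (log2 0.41 ± 0.11). Among 10 matrix proteases and inhibitors, 4 rose and 4 fell. The inhibitors Timp2 and Timp3 were higher, Timp2 at 84.2 and 62.7 against 6.13 and 10.3 CPM (log2 2.74 ± 0.19) and Timp3 at 2227 and 1932 against 1234 and 1081 CPM (log2 0.82 ± 0.06). Adamts4, a protease of proteoglycans, was lower at 307 and 298 against 446 and 489 CPM (log2 −0.68 ± 0.08).

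Notch pathway genes differed in part. In this pathway ligands on 1 cell activate receptors on its neighbour, which switch on Hey and Hes repressors. Of 15 genes tested, 6 were higher in arterial cells (Jag1, Jag2, Dll1, Notch3, Notch4, Hey1), 1 lower (Hey2) and 8 did not pass (median log2 0.11). The ligand Jag1 stood at 356 and 318 against 129.5 and 91.4 CPM, a log2 fold change of 1.67 ± 0.09 (edgeR adjusted p = 9.6e-13). Jag2 stood at 182 and 225 against 73.5 and 90.8 CPM (log2 1.28 ± 0.10). Dll4, the ligand most used as an arterial marker, was nearly level at 338 and 365 against 314 and 345 CPM (log2 0.06 ± 0.08, edgeR adjusted p = 0.71), and the receptor Notch1 at 543 and 503 against 497 and 471 CPM did not pass either. The 2 Hey targets moved in opposite directions. Hey1 was higher (194 and 202 against 89.3 and 98.7 CPM, log2 1.02 ± 0.10) and Hey2 lower (16.5 and 18.6 against 35.0 and 37.9 CPM, log2 −1.06 ± 0.19). Notch3, a receptor of mural cells, had 21.1 and 23.8 against 1.75 and 6.54 CPM beside the uneven mural markers above, and it was among the genes that turned when the class rule was applied to cells thinned to 2000 UMIs.

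Arterial markers outside the rule gave a check of the label against Plvap-high capillary cells only. Of 12, 7 were higher (Gja4, Efnb2, Sox17, Hey1, Eln, Ltbp4, Clu), 2 lower (Hey2, Nrp1) and 3 did not pass (Dll4, Unc5b, Mgp). Efnb2, an ephrin ligand that marks arteries against veins, stood at 472 and 417 against 277 and 286 CPM (log2 0.59 ± 0.08). Nrp1, a co-receptor of VEGF and semaphorins, was lower in arterial cells at 773 and 793 against 1808 and 1829 CPM (log2 −1.23 ± 0.06, edgeR adjusted p = 6.0e-14). Among 6 capillary markers, Kdr, Rgcc, Car4 and Cd300lg were lower and Cd36 and Btnl9 higher. These directions depended on how arterial cells were chosen. On cells thinned to 2000 UMIs Cd36 turned (log2 −0.0044) and Btnl9 did not pass (0.32), and both did the same with arterial cells of more Plvap than Gpihbp1 and Aqp1 (−0.22 and 0.095). Rgcc, Car4 and Cd300lg turned with arterial cells of more Gpihbp1 and Aqp1 (0.94, 0.0075 and 0.86); Kdr was lower in every one of these settings. Of 5 venous markers tested, Vwf (log2 1.12 ± 0.09) and Vcam1 (log2 3.66 ± 0.30) were higher and Lrg1 (log2 −1.96 ± 0.12) lower, while Nr2f2, which specifies veins, stood at 24.1 and 27.4 against 12.3 and 19.0 CPM and did not pass.

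Of 8 VEGF genes tested outside the rule, the ligand Vegfc was higher, the receptor Kdr and the co-receptors Nrp1 and Nrp2 were lower and 4 did not pass. Among the last was the receptor Flt4, at 82.7 and 91.6 against 119 and 97.9 CPM (log2 −0.22 ± 0.11, edgeR adjusted p = 0.24). Vegfc, whose main receptor acts in lymphatic vessels, stood at 168 and 209.8 CPM in arterial and 13.1 and 11.3 CPM in capillary cells, a log2 fold change of 4.10 ± 0.14 (edgeR adjusted p = 7.3e-17). Kdr, the main VEGF-A receptor, stood at 926 and 977 against 1609 and 1689.5 CPM (log2 −0.81 ± 0.06), and Nrp2 at 94.8 and 98.9 against 273 and 249 CPM (log2 −1.40 ± 0.10). Of 12 genes of sprouting tip cells tested, 7 were lower (Esm1, Apln, Adm, Trp53i11, Nid2, Igfbp3, Plaur), 1 higher (Cxcr4) and 4 did not pass (median log2 −0.48). Apln, a secreted peptide, and its receptor Aplnr were both lower. Aplnr stood at 21.1 and 27.2 against 128 and 103 CPM (log2 −2.06 ± 0.15), and Apln at 1.5 and 0.214 against 11.4 and 9.31 CPM. In the angiopoietin group the receptors Tek and Tie1 did not pass, and Ptprb, the phosphatase that acts on Tek, was higher at 2453 and 1848 against 1551 and 1092 CPM (log2 0.70 ± 0.05).

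The BMP and TGF-beta list held 10 higher, 4 lower and 6 members that did not pass of 20 tested (median log2 0.26). Its ligands were split. Bmp6 was higher at 42.1 and 35.1 against 6.13 and 2.55 CPM (log2 3.52 ± 0.28) and Tgfb2 at 76.7 and 115 against 10.5 and 25.8 CPM (log2 2.19 ± 0.14). Inhbb, which encodes an activin subunit, was lower at 27.1 and 34.5 against 90.2 and 88.7 CPM (log2 −1.46 ± 0.14). The inhibitory Smad6, which BMP signals and flow are known to raise, stood at 61.7 and 69.6 against 12.3 and 15.7 CPM (log2 2.14 ± 0.16, edgeR adjusted p = 2.3e-10). The BMP targets Id1, Id2 and Id3 and the receptors Acvrl1, Bmpr2 and Eng were higher by small amounts, Id3 by log2 0.50 ± 0.06 and Eng by log2 0.25 ± 0.06. Among 8 Wnt genes tested, Dkk2, a secreted Wnt antagonist, differed most at 113 and 81.6 against 16.6 and 9.43 CPM (log2 3.0 ± 0.16); Sfrp1, Fzd6 and Lrp5 were higher and Fzd4 lower. Of 19 guidance genes, 3 were higher and 7 lower, with Epha4 at 165 and 155 against 99.8 and 90.6 CPM (log2 0.73 ± 0.10) and Sema3f at 174 and 199 against 270.5 and 315 CPM (log2 −0.68 ± 0.09).

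Transcription factors held 14 higher, 6 lower and 9 members that did not pass of 29 tested (median log2 0.47). Sox17, which specifies arteries, was higher at 387 and 539.6 against 242 and 356 CPM (log2 0.60 ± 0.08). It was higher still, at 556 and 639 CPM, in the Gpihbp1/Aqp1 capillary cells described below. Mecom stood at 492 and 324 against 245 and 152 CPM (log2 1.04 ± 0.08) and Epas1, the hypoxia factor HIF-2 alpha, at 1680.0 and 1686 against 1039 and 988 CPM (log2 0.72 ± 0.06). The homeobox relatives Meox2 and Meox1 differed in opposite directions. Meox2 stood at 76.7 and 77.7 against 4.38 and 5.88 CPM (log2 3.74 ± 0.19) and Meox1 at 16.5 and 18 against 66.5 and 57.8 CPM (log2 −1.77 ± 0.17). Nkx2-3, which directs vessel identity in gut and spleen, was lower at 427 and 479 against 596 and 596 CPM (log2 −0.40 ± 0.07). This depended on the arterial cells used. With those of more Plvap than Gpihbp1 and Aqp1 only, Nkx2-3 did not pass (log2 −0.057). With those of more Gpihbp1 and Aqp1 only, its log2 fold change was −2.58. Mef2c was lower too, with a log2 fold change of −0.86 ± 0.07. Flow-responsive genes were mostly higher: of 8, Klf2, Klf4, Nos3, Heg1 and Slc9a3r2 rose, Thbd and Cyp1b1 fell, and the flow sensor Piezo1 did not pass. Klf4 stood at 1495 and 1258 against 1097 and 934 CPM (log2 0.42 ± 0.06), and Nos3, the endothelial nitric oxide synthase, at 242 and 249 against 123 and 164 CPM (log2 0.67 ± 0.10).

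Genes that set vessel tone differed in both directions, 9 higher and 5 lower of 16 tested. Edn1, the precursor of the vasoconstrictor endothelin-1, stood at 371 and 398 CPM in arterial and 33.3 and 44.0 CPM in capillary cells, a log2 fold change of 3.20 ± 0.10 (edgeR adjusted p = 2.6e-17). Ece1, the enzyme that cleaves that precursor, was higher (log2 0.40 ± 0.07). The endothelin receptor genes were split: Ednrb was lower (52.6 and 64.4 against 129.5 and 113 CPM, log2 −0.94 ± 0.12) and Ednra passed as higher. The prostaglandin enzyme Ptgs1 had 13.5 and 14.6 against 75.3 and 44.4 CPM (log2 −1.80 ± 0.19), and the adrenomedullin receptor genes Calcrl and Ramp3 were lower by log2 −0.60 ± 0.08 and −1.26 ± 0.16. Of 10 ion channels, 5 were higher, 1 lower and 4 did not pass (median log2 1.05). Kcne3, a potassium channel subunit, stood at 66.2 and 38.3 against 1.75 and 1.55 CPM (log2 4.67 ± 0.29). Kcnn3 and Kcnn4, the calcium-activated potassium channels of endothelial relaxation, and the calcium channel Trpv4 were each at 0 UMIs in the capillary cells of library 1, where 3 counts would be 2.63 CPM. In arterial cells Kcnn4 stood at 27.1 and 15.4 CPM and Trpv4 at 25.6 and 15.8 CPM.

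Connexins form the channels between neighbouring cells, and Gja5, which the rule used, is not counted. Gja4 was higher at 439 and 458 against 160.2 and 163 CPM (log2 1.46 ± 0.08, edgeR adjusted p = 1.2e-12) and Gja1 lower at 385 and 366 against 709 and 665 CPM (log2 −0.89 ± 0.07). Gjc1 and Panx1 did not pass. Of 10 junction genes, 5 were higher and 1 lower. Cldn5, the tight junction claudin, differed most at 236 and 219 against 7.0 and 19.4 CPM (log2 3.64 ± 0.16), Cgnl1 stood at 122 and 70.4 against 38.5 and 17.3 CPM (log2 1.90 ± 0.14) and Jam3 was lower (log2 −1.32 ± 0.11). Caveolar coat genes were mostly higher: Cav1, Cav2, Cavin1, Cavin2, Ehd2 and Pacsin2 rose, and Cavin3 and Ehd4 fell, of 8. Cavin1 stood at 839 and 845 against 495 and 541 CPM (log2 0.66 ± 0.07) and Ehd4 at 728 and 698 against 1216 and 1362 CPM (log2 −0.90 ± 0.07). Summed over the list, caveolar genes were highest in the Gpihbp1/Aqp1 capillary cells described below, at 6811 and 6393 CPM. The same sums were 4548 and 4426 CPM in arterial and 4126 and 4117 CPM in Plvap-high cells. Junction genes had this order too (6769 and 6187, 4282 and 4205, 3863 and 3521 CPM). With arterial cells of more Plvap than Gpihbp1 and Aqp1 only, 4 caveolar genes rose instead of 6, and 3 junction genes instead of 5. Cav1 and Cav2 no longer passed (log2 0.038 and 0.087). Over all genes tested there, 866 of 10184 rose.

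Coagulation and complement genes held 7 higher and 4 lower members of 15. Plat, the tissue plasminogen activator, stood at 615 and 668 against 256 and 244 CPM, a log2 fold change of 1.37 ± 0.08 (edgeR adjusted p = 8.4e-13). Vwf, which tethers platelets, stood at 371 and 346 against 189.9 and 148 CPM (log2 1.12 ± 0.09), and the complement inhibitor Cd59a at 73.7 and 81.6 against 29.8 and 31.4 CPM (log2 1.33 ± 0.14). The anticoagulant genes Thbd and Tfpi were lower and Procr, the protein C receptor, higher. Of 12 adhesion genes, Icam1, Icam2, Vcam1, Cd44 and Jam2 were higher and the sialomucins Podxl and Emcn lower. Icam1, which binds leukocyte integrins, stood at 600.1 and 456 against 236 and 253 CPM (log2 0.99 ± 0.09) and Emcn at 456 and 571 against 786 and 947 CPM (log2 −0.77 ± 0.07). Chemokine genes were few: Cx3cl1, Cxcl1, Cxcl16 and Cxcr4 were higher, and Cxcl12 (2594 and 2264 against 3448 and 3208 CPM, log2 −0.48 ± 0.05) and its scavenger Ackr3 lower, of 8 tested. Without cells holding markers of other cell types, 1 of 7 chemokine genes tested passed as higher instead of 4 of 8. Over all 10148 genes tested in that setting, 911 were higher.

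Of 13 transporters of solutes tested, 6 were lower in arterial cells, 2 higher and 5 did not pass. The prostaglandin carrier Slco2a1 stood at 1000.2 and 860.0 against 1742 and 1997 CPM (log2 −1.06 ± 0.08), and the glucose carrier Slc2a1 at 43.6 and 39.6 against 65.6 and 71.0 CPM (log2 −0.82 ± 0.14). Slc6a6, the taurine transporter, went the other way at 614 and 729 against 104 and 119 CPM (log2 2.58 ± 0.08, edgeR adjusted p = 2.3e-17). Lipid genes were split, 8 higher and 5 lower of 19 (median log2 0.02). The higher members included Lpl, the lipase that Gpihbp1 anchors, at 117 and 70.2 against 12.3 and 7.43 CPM (log2 3.21 ± 0.17), and Aqp7, a glycerol channel, at 99.3 and 104 against 5.25 and 19.3 CPM (log2 2.58 ± 0.18). The cholesterol genes Scarb1, Abca1 and Abcg1 were lower, Scarb1 at 313 and 251 against 641 and 465 CPM (log2 −0.96 ± 0.08). With arterial cells of more Plvap only, 5 lipid genes were higher and 8 lower. Over all 10184 genes tested in that setting, 866 were higher and 630 lower.

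S100 and annexin genes, which bind calcium, held 6 higher and 0 lower members of 10. S100a6 stood at 501 and 712 against 62.1 and 81.6 CPM (log2 3.07 ± 0.09, edgeR adjusted p = 5.9e-18) and S100a4 at 42.1 and 62.5 against 0 and 1.33 CPM (log2 5.61 ± 0.29). In the contractile and cytoskeletal list 7 of 17 were higher and 1 lower, with the intermediate filament gene Vim at 1731 and 1391 against 750.1 and 708 CPM (log2 1.05 ± 0.07). Acta2, the smooth muscle actin, stood at 9.02 and 88.6 against 0 and 3.66 CPM, and 7 of 8 mural and 5 of 7 fibroblast markers tested passed as higher. Of these, Rgs5, Pdgfrb, Notch3, Acta2, Tagln and Col3a1 were higher in both libraries. Myh11, Des, Col1a1, Col1a2, Dcn and Lum were higher in library 2 only and lower, at few UMIs, in library 1. Dcn stood at 4.51 and 209 against 5.25 and 84.3 CPM. All 4 epithelial markers tested (Reg3b, Reg3g, Lgals4, Krt19) passed as lower, although Reg3b and Reg3g had 0 UMIs in both classes of library 1. Most epithelial marker UMIs of the capillary class in library 2 lay in 1 cell, as given above. Cells with at least 2 UMIs of markers of other cell types were then left out, which removes most UMIs of these markers by construction. Abcc9 is on the mural list and so counted toward leaving out capillary cells. Then 2 mural markers and 1 fibroblast marker had enough counts to be tested, and none passed as higher. Abcc9 still passed as lower (log2 −2.37). In the elastic matrix list 8 of 13 tested members were then higher, 7 of them among the earlier 9, with Mgp added. In the contractile list 4 of 14 were higher, 3 of them among the earlier 7, with Actn4, an actin crosslinker, added.

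**Figure D3:**
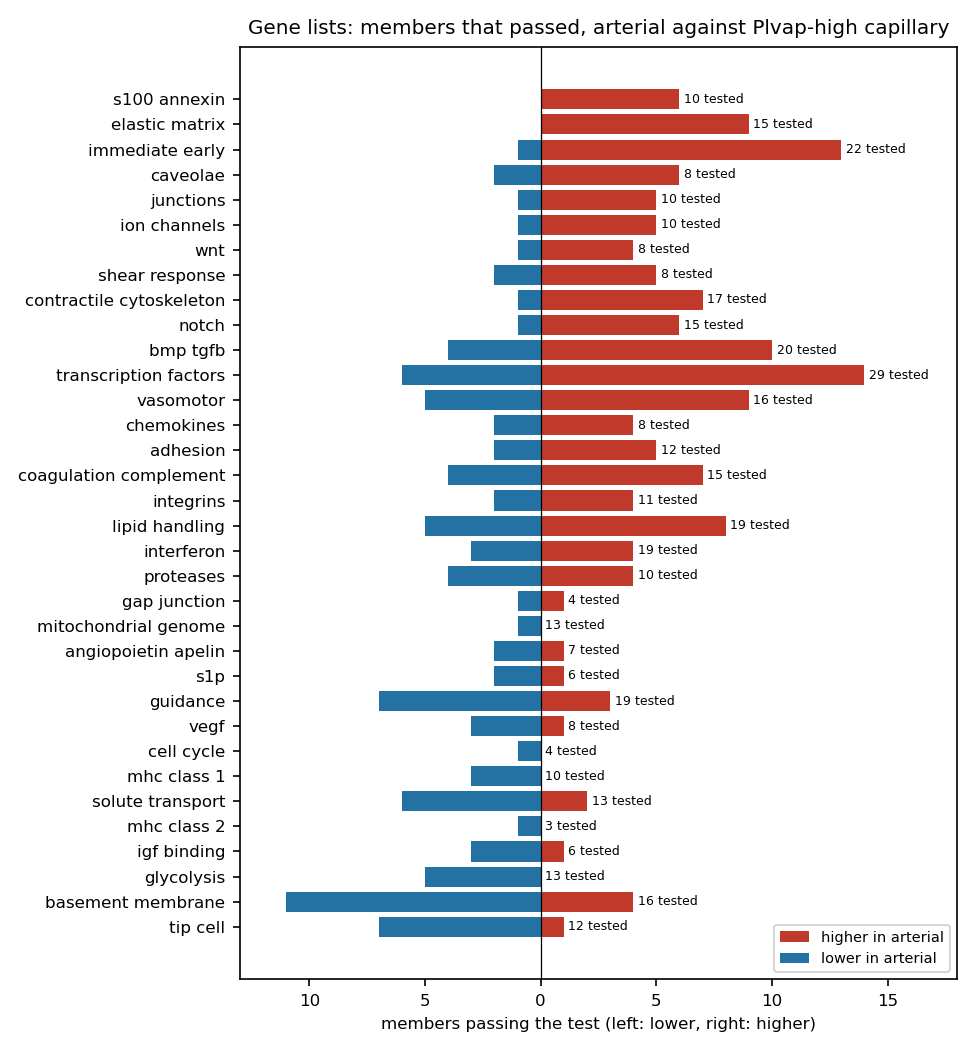
For each of 34 gene lists, red bars count the members that passed as higher in arterial cells and blue bars, drawn to the left, those that passed as lower; the number tested stands beside each bar. Elastic matrix (9 higher, 0 lower) lies near the top, and basement membrane (4 higher, 11 lower) and tip cell genes (1 higher, 7 lower) lie at the bottom.

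A second capillary class, with the same gates and more Gpihbp1 and Aqp1 than Plvap, showed which differences were shared by both kinds of capillary. It held 189 and 910 cells. In 1 fit of the 3 classes, 2176 of 10525 genes (20.7%) passed between arterial and Gpihbp1/Aqp1 capillary cells, 1265 higher (12%) and 911 lower (8.66%), and 2992 (28.4%) between the capillary kinds. Arterial cells serve in both arterial comparisons, so the contrast between the capillary kinds is the test of whether they differ. Scaling moved these splits: by total UMIs alone, 1047 were higher and 1212 lower in arterial cells, and between the kinds 1958 were higher and 1216 lower in Gpihbp1/Aqp1 cells, against 1363 (13%) and 1629 (15.5%).

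Several genes stood above both capillary kinds. Fn1 had 16.6 and 39.7 CPM in Gpihbp1/Aqp1 cells, so arterial cells exceeded these by log2 3.31, although the capillary kinds also differed (log2 1.55, edgeR adjusted p = 1.0e-06). Arterial cells also exceeded Gpihbp1/Aqp1 cells in Vegfc (11.6 and 29.9 CPM, log2 3.03) and Edn1 (113 and 125 CPM, log2 1.78). Eln had 53.2 and 54.8 CPM in Gpihbp1/Aqp1 cells, and the capillary kinds did not pass a test of their difference (log2 0.06, edgeR adjusted p = 0.82). Atp2a3 (log2 −0.11, edgeR adjusted p = 0.87) and Smad6 (log2 0.02, edgeR adjusted p = 0.97) did not pass between the kinds either. Among the genes lower than in Plvap-high cells, Nrp1 and Kdr were also lower in arterial than in Gpihbp1/Aqp1 cells (log2 −0.63 and −0.39). Lamb1 and Slc16a1 showed little difference from Gpihbp1/Aqp1 cells, log2 0.01 and 0.33, and did not pass there; the capillary kinds differed by log2 −1.81 and −2.74.

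Other genes lay between the capillary kinds. Meox2 had 397 and 366 CPM in Gpihbp1/Aqp1 cells, so arterial cells were above 1 capillary kind (log2 3.74 ± 0.19) and below the other (log2 −2.18, edgeR adjusted p = 6.6e-20). Timp4 stood at 158 and 114 CPM in arterial, 13.1 and 9.09 in Plvap-high and 915 and 746 CPM in Gpihbp1/Aqp1 cells. Lpl, Bmp6 and Ehd1 had the same order, with 512 and 348, 184 and 157 and 105 and 149 CPM in Gpihbp1/Aqp1 cells. Sox17 had this order too, at 556 and 639 CPM there. In the reverse order, Gja4, Plat, Enpp6 and Dkk2 were lowest in Gpihbp1/Aqp1 cells. Gja4 stood at 13.3 and 19.4 CPM there and Plat at 38.2 and 39.7 CPM, and Enpp6 had 0 UMIs in both libraries, where 3 counts would be 4.98 and 0.924 CPM.

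Arterial cells were themselves mixed in these genes. Plvap exceeded Gpihbp1 and Aqp1 in 126 and 690 arterial cells, fell below them in 28 and 209, and equalled them in 9 and 35. Meox2 stood at 9.44 and 21.6 CPM in the first kind of arterial cell and 362 and 260.1 CPM in the second. Timp4 stood at 20.8 and 19.5 against 758 and 422 CPM and Cldn5 at 88.8 and 72.6 against 862 and 646 CPM. Gja4 went the other way, at 521 and 571 against 68.9 and 133 CPM, as did Plat at 729 and 817 against 138 and 219.7 CPM. Alpl was similar in both, at 157 and 148 against 172 and 217 CPM. This split uses rule genes and was chosen after the data were seen, so it carries no test between the 2 kinds of arterial cell.

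The comparison was repeated with arterial cells of more Plvap only, which puts the same condition on both classes. The log2 fold change fell from 3.74 to 1.78 for Meox2, from 3.64 to 2.15 for Cldn5, from 3.61 to 1.01 for Timp4 and from 3.21 to 1.14 for Lpl, and all 4 still passed. Bmp6, Ehd1 and Aqp7 also fell, to 1.55, 3.02 and 1.10. Fn1 (4.88), Vegfc (4.33), Edn1 (3.23), Alpl (3.68) and Fbln2 (3.14) were close to their values with all arterial cells. Nrp1 and Kdr were at −1.27 and −0.78. In this form 1496 genes passed. Cd36, a fatty acid receptor, turned from 0.25 ± 0.06 to −0.22, and Btnl9 no longer passed (0.095). With arterial cells of more Gpihbp1 and Aqp1 only, Gja4 turned to −0.54, Clu to −0.71, Itgb4 to −1.38 and Plat to −0.41, so these genes were above the Plvap-high level in the first kind of arterial cell and not in the second.

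**Figure D4:**
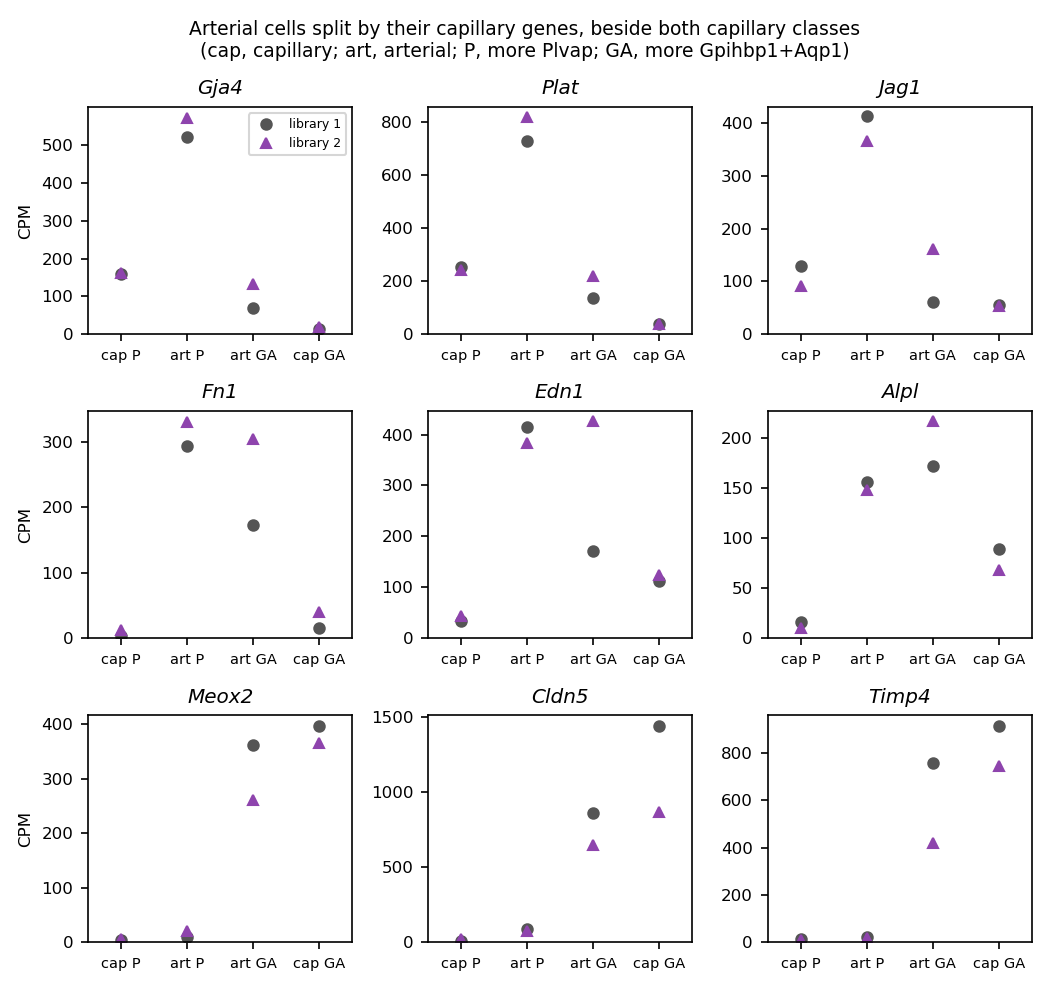
CPM of 9 genes per library (circles, library 1; triangles, library 2) in Plvap-high capillary cells (cap P), arterial cells with more Plvap (art P), arterial cells with more Gpihbp1 and Aqp1 (art GA) and Gpihbp1/Aqp1 capillary cells (cap GA). Meox2, Cldn5 and Timp4 are low in both P classes and high in both GA classes, and Gja4 and Plat are highest in art P.

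Levels also varied with the arterial score over all gated cells, both capillary kinds and the cells of score 2 included; these bins share the library and differ in depth (median UMIs 3125 and 3831 at score 0, 4844 and 5395.5 at 10 or more). Jag1 stood at 106 and 74.1 CPM at score 0, 96.6 and 109 at score 2, 193 and 137 at 3 to 4, 306 and 259 at 5 to 9 and 572 and 537 CPM at 10 or more. Its lowest value lay at score 2 in library 1 and at score 0 in library 2, and in both libraries the level was higher in each bin above score 2. Gja4 rose over every bin, from 97.9 and 106 CPM at score 0 through 217 and 226 CPM at score 2 to 669 and 671 CPM at 10 or more. Vegfc rose from 11.7 and 11.8 to 325 and 358 CPM and Eln from 57.5 and 44.3 to 444 and 349.9 CPM between the same ends. Mgp was concentrated at the top, with 43.7 and 67.1 CPM at 5 to 9 and 1777 and 847 CPM at 10 or more. Nrp1 was highest at score 0 (1779 and 1755 CPM) and stood at 1006 and 982 CPM at 3 to 4 and 673 and 592 CPM at 10 or more. Slc16a1 stood at 82.4 and 106 CPM at score 0 and 9.16 and 12 CPM at 10 or more. Aqp1, which limits the capillary class, stood at 2288 and 963 CPM at 3 to 4 and 64.1 and 225 CPM at 10 or more and was lowest at the top of the score.

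**Figure D5:**
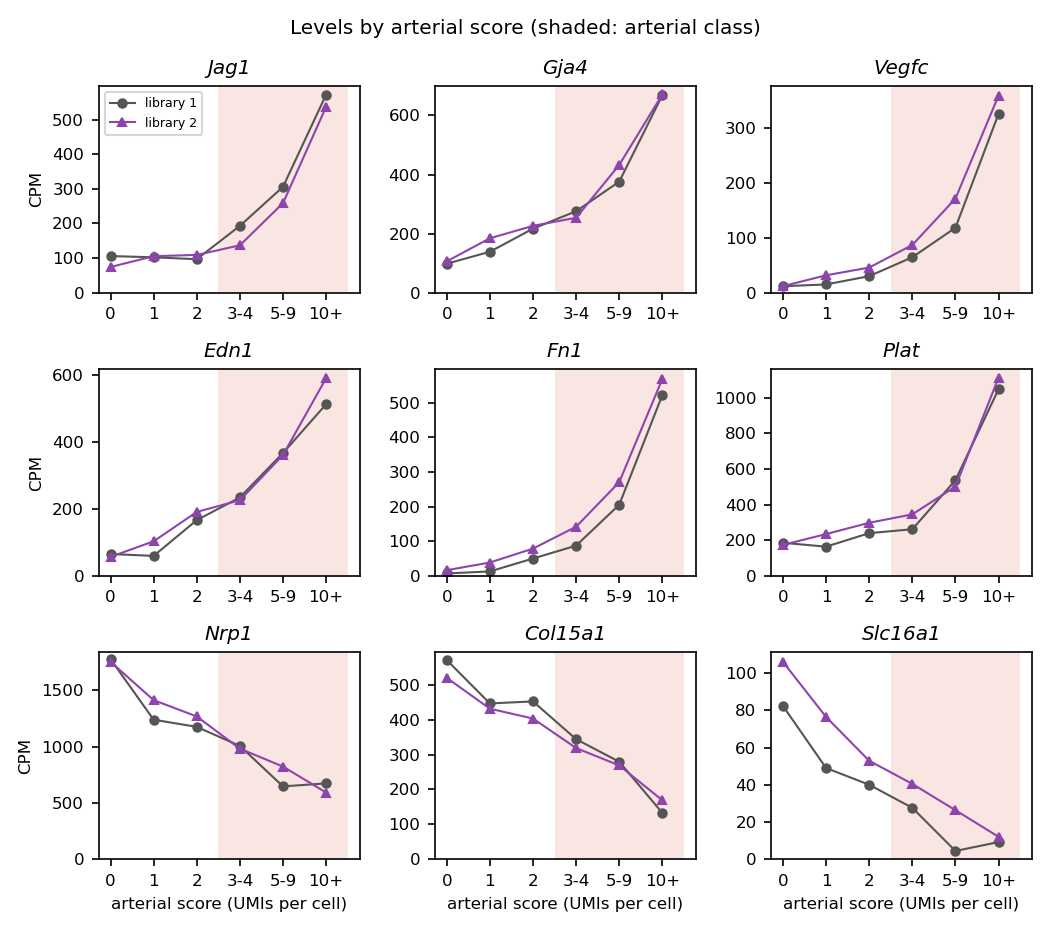
CPM of 9 genes (y axes) by arterial score in UMIs per cell (x axes) for library 1 (grey circles) and library 2 (purple triangles) over all gated cells; the shaded bins form the arterial class. Jag1, Gja4, Vegfc, Edn1, Fn1 and Plat are highest and Nrp1, Col15a1 and Slc16a1 low at scores of 10 or more.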

How the data were processed

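The authors deposited, per library, a matrix of raw counts: UMIs per gene (31053 rows) and cell barcode from Chromium 3' v3 libraries, per the labels' protocols. The submitters' processing notes name bcl2fastq 2.2, Cell Ranger 3.1.0 and the build mm10; which gene models were used was not given in the sources used here. Counts were summed per library and class and tested with edgeR 4.0.16 (R 4.3.3; TMM scaling, filterByExpr with a minimum count of 10, library as block, robust quasi-likelihood test, Benjamini-Hochberg adjustment at 0.05). SEs come from the fold change and the F value. DESeq2 1.42.0 was an alternative. The method was tested on simulated data, whose spread was fixed in advance rather than estimated from these libraries. There 56 of 100 genes changed 2-fold and 99 of 100 changed 4-fold passed, with 9 false among 164 calls. A gene that did not pass may thus still differ. No doublet caller was run; cells with many UMIs or with markers of other cell types were left out in alternatives instead. Gene coordinates come from GENCODE vM21 on GRCm38 (10562 of 10569 IDs matched).

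Members and gene lists were chosen with earlier results of these data known. Named genes were the 12 largest increases and decreases that reached 50 CPM in both libraries where higher and had the same direction in both. Up to 4 members of each list of at least 20 CPM were named too. Further list members are named as parts of their list. Ccl21a, Hspa1a, Ly6, Gbp and H2 genes share reads with near-identical copies. The pairing of classes comes from the shared library.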

Additional observations from a re-analysis of the deposited data

How the results depend on the processing

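Against 1722 genes that passed, 465 passed with DESeq2 (300 higher, 165 lower) and 613 with no replicate block (403 higher, 210 lower), all of them among the 1722. With equal numbers of cells per class and library 684 of 7679 genes tested passed (418 higher, 266 lower), 658 of them among the 1722, of which 1421 were tested there. The block is the library, since both classes were drawn from each library. Counts without it move because library differences then enter the spread. With arterial cells of more Gpihbp1 and Aqp1 than Plvap only, a choice made after seeing the data, 609 genes passed as higher. The other alternatives (RLE or no scaling, no filter on low counts, 3 classes in 1 fit, stricter score, capillary and quality limits, cells thinned to 2000 UMIs, no top 5% of cells by UMIs, no cells with other markers, and arterial cells of more Plvap only) gave between 1211 and 1904.

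For 186 genes named in the text, 2759 values under these alternatives were computed, those of single libraries aside. A value counted as turned only if the gene passed in the first fit or in the alternative. By this count 2485 kept their side of the threshold without turning, 239 no longer passed, 14 passed newly and 21 turned. The 2485 include sign changes of genes that passed in neither fit. Dll4 was such a gene, at −0.18 with arterial cells of more Gpihbp1 and Aqp1 only. Any gene that passed at first and had no adjusted p with DESeq2 was counted as kept. With arterial cells of more Gpihbp1 and Aqp1 only, the log2 fold changes that turned were Acvrl1 −0.12, Bmpr2 −0.0086, Car4 0.0075, Cd300lg 0.86, Clu −0.71, Cxcl12 0.33, Gja4 −0.54, Igfbp4 −1.67, Itga5 −0.17, Itga6 0.44, Itgb4 −1.38, Klf2 −0.087, Lama3 −0.70, Plat −0.41, Procr −0.58, Rgcc 0.94 and Trp53i11 0.18. Cd36 turned to −0.057 with a score of at least 5, to −0.0044 on thinned cells and to −0.22 with arterial cells of more Plvap only. Notch3 turned to −1.77 on thinned cells. Leaving out a library left 1 library per class and so values with no test and no counts of passing genes. These values are log2 ratios of CPM plus 1, whereas the fitted values add no such 1. The added 1 shrinks the ratio of genes with few counts in a class. Where the ratio is smaller in size than the fitted value, the gap need not be a difference between libraries. For 173 named genes that passed, the ratio of arterial to capillary CPM plus 1 was compared with the fitted value. It differed by over 1.5 times for 9 in library 2 alone and for 22 in library 1 alone, where counts are fewer. In library 2 and library 1, 173 and 172 kept their direction. In library 1 alone the 22 included Cyp1b1 (log2 −4.57 against −2.15), Bgn (5.05 against 2.76), Apln (−2.31 against −4.57), Kcnn3 (4.0 against 1.82) and Vcam1 (5.21 against 3.66). Of these, Cyp1b1, Bgn, Kcnn3 and Vcam1 were larger in size than the fitted value, which the added 1 cannot produce. On this scale Vcam1 was at 5.21 in library 1 and 3.18 in library 2. In library 2 alone the 9 included Trpv4 (3.78 against 6.19), Apln (−3.09), Kcnn4 (3.12 against 4.36), Lox (3.56 against 4.68) and Nebl (4.93 against 5.92). Nebl at 4.95 and Trpv4 at 4.73 in library 1 alone were below the fitted value as well. Sfrp1 was between 0.00 in library 1, with no UMI in either class, and 1.77 in library 2. On cells thinned before the rule was applied, the arterial sums were smaller (368344 and 2200956 UMIs) and the capillary sums larger (1321585 and 10328781); with equal numbers of cells all sums but the arterial one of library 1 were smaller.

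The limits are few libraries and uneven depth. With 4 sums and 1 residual degree of freedom, the p-values lean on the spread that edgeR pools over genes, and library 2 holds most UMIs. Genes near 0 in a class have fitted values that depend on few counts. Both classes were cut from continuous scores, and only the capillary class was limited in Gpihbp1 and Aqp1. Whether mural, fibroblast and epithelial RNA in some cells is free RNA or a second cell was not tested, nor was its part in the values above beyond the run without such cells.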

Other observations

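Of 13 glycolysis genes tested, 5 were lower in arterial cells (Gpi1, Pfkp, Gapdh, Pkm, Ldha), 0 higher and 8 did not pass. Gapdh stood at 397 and 447 CPM in arterial and 444 and 562 CPM in capillary cells (log2 −0.30 ± 0.08) and Pkm at 185 and 195 against 223 and 235 CPM (log2 −0.30 ± 0.09). With arterial cells of more Plvap only, 1 glycolysis gene passed as lower instead of 5. Over all 10184 genes tested in that setting, 630 were lower. Of 13 genes of the mitochondrial genome, mt-Cytb alone passed, as lower (log2 −0.16 ± 0.05), and median mitochondrial shares per cell were 2.10 and 2.60% in arterial and 2.48 and 2.71% in capillary cells. Pcna, a DNA replication gene, was lower at 69.2 and 83.9 against 124 and 129.7 CPM (log2 −0.70 ± 0.11). Immediate early genes, which rise within minutes of stress or dissociation, held 13 higher and 1 lower member (Ier3) of 22; their part in the other differences was not tested. Atf3 stood at 1274 and 904 against 762 and 646 CPM (log2 0.57 ± 0.07) and Klf6 at 576 and 382 against 277 and 239 CPM (log2 0.78 ± 0.09).

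Of 10 genes of MHC class I antigen presentation, 3 were lower in arterial cells (B2m, H2-K1, H2-T23), 0 higher and 7 did not pass. B2m, the light chain of class I molecules, stood at 2608 and 2535 against 3281 and 3173 CPM (log2 −0.35 ± 0.05). H2 genes have near-identical copies that share reads, so the value of H2-K1 (log2 −0.31 ± 0.05) is uncertain. Interferon genes were split, with 4 higher and 3 lower of 19. Irf8 was lower at 102 and 69.6 against 121 and 124 CPM (log2 −0.72 ± 0.12), and Irf7 higher at 60.2 and 83.9 against 48.1 and 54.9 CPM (log2 0.53 ± 0.13). Among sphingosine-1-phosphate genes, the receptor S1pr1 was higher at 654 and 563 against 347 and 275 CPM (log2 0.97 ± 0.07), and Plpp3, a lipid phosphatase that degrades this signal outside the cell, lower at 1062 and 1052 against 2779 and 2359 CPM (log2 −1.28 ± 0.06). Igfbp7, which binds insulin-like growth factors and matrix, was lower at 4196 and 4851 against 8171 and 8914 CPM (log2 −0.94 ± 0.05) and Igfbp4 higher at 1439 and 1180.0 against 937 and 825 CPM (log2 0.54 ± 0.06).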
